A study of Homo sapiens with 12 samples.

Results

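The 10 genes described here encode transcription factors of the ETS family: ETV1, ETV4, ETV5, ETV6, ETS2, ELK4, ELF1, ELF3, EHF and SPDEF. They were found in the count table by matching Ensembl gene IDs to these symbols. They make up 10 of the 28 ETS family genes listed for this account, out of 57992 entries in the table. The 10 were named with earlier results of these data known. ETV1 was chosen by its CPM in these libraries, high in LNCaP and near 0 in MR49F and C4-2, so its values are a description and carry no test.

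Cultured human lines of prostate adenocarcinoma were profiled by poly(A) RNA sequencing to compare cells that differ in sensitivity to enzalutamide, an antagonist of the androgen receptor. MR49F, labelled resistant, is a derivative of LNCaP that was selected for resistance. C4-2, labelled sensitive, is a castration-resistant subline of LNCaP, and LNCaP itself was also labelled sensitive. Each of these 3 lines had 3 biological replicates; C4-2R, a further line labelled resistant, was not analysed here. A group is 1 line, so resistance cannot be told apart from other differences between lines.

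ETS factors bind DNA through a conserved ETS domain that contacts a GGAA core. ETV1, ETV4 and ETV5 form the PEA3 group, activators that ERK kinases phosphorylate and that the ubiquitin ligase COP1 marks for degradation. ETS genes are recurrent targets of rearrangement in prostate cancer, and in LNCaP the ETV1 locus is known to be inserted into MIPOL1 on chromosome 14. EHF, ELF3 and SPDEF are ETS factors of epithelial cells, and SPDEF was first described in prostate.

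Total gene counts were 6990461 to 9375912 in 8 libraries and 42770072 in C4-2 replicate 1. This library also stood apart from C4-2 replicate 2, with a chi-square per degree of freedom of 19.3 over genes, where the other replicate pairs gave 1.46 to 8.15. Results that turn on it are therefore given with and without it. Levels are in CPM, the count of a gene over the size of its library, with sizes scaled by the TMM method. All 8 prostate luminal markers were detected, with summed levels of 9240 to 9600 CPM in MR49F, 6930 to 7920 CPM in C4-2 and 5760 to 5950 CPM in LNCaP. The 12 markers of other cell types summed to 7.15 to 7.6 CPM, 24.8 to 29.3 CPM and 30.1 to 34.1 CPM in the same lines, mainly through the collagen gene COL1A1, which was lower than in LNCaP in MR49F (log2 fold change -2.15) and C4-2 (-0.64). COL3A1 was lower in MR49F (-2.68) and higher in C4-2 (1.77), and VWF was lower in MR49F (-2.94). The T cell marker CD3E and the basal keratin KRT5 had no count in any library. KRT14, the other basal keratin listed, averaged 0.534 CPM in MR49F, 1.16 CPM in C4-2 and 1.1 CPM in LNCaP. In bulk RNA, fewer cells of a type and less RNA per cell cannot be told apart.

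Apart from ETV1, the members did not move as a block. ETV5 is left out of the counts that follow and described with ETV4. In MR49F against LNCaP, ETS2, ELK4 and EHF were higher, ETV6 and ELF1 were lower, and ELF3 and SPDEF did not pass the test. That is 3 higher and 2 lower of 7 members, where 24.1% of all 15407 tested genes were higher and 22.8% lower (47.0% in either direction). In C4-2 against LNCaP, ETV6, ETS2 and ELF3 were higher, ELK4 was lower and 3 members did not pass, where 26.2% of all tested genes were higher and 23.5% lower (49.7% in either direction). In MR49F against C4-2, ETS2, ELK4 and EHF were higher, and ETV6, ELF1 and ELF3 were lower, where 29.9% of all tested genes were higher and 31.1% lower (61.0% in either direction). Changed means an adjusted p under 0.05 in edgeR's quasi-likelihood test with Benjamini-Hochberg adjustment over all tested genes. Of the 10 members, 9 passed the filter on low counts and ETV4 did not. ETV1 passed through LNCaP alone and ETV5 through C4-2 alone, so these genes had to differ between lines, and their difference is a description. The comparisons with LNCaP share its 3 libraries, and each line enters 2 of the 3 comparisons.

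**Figure D1:**
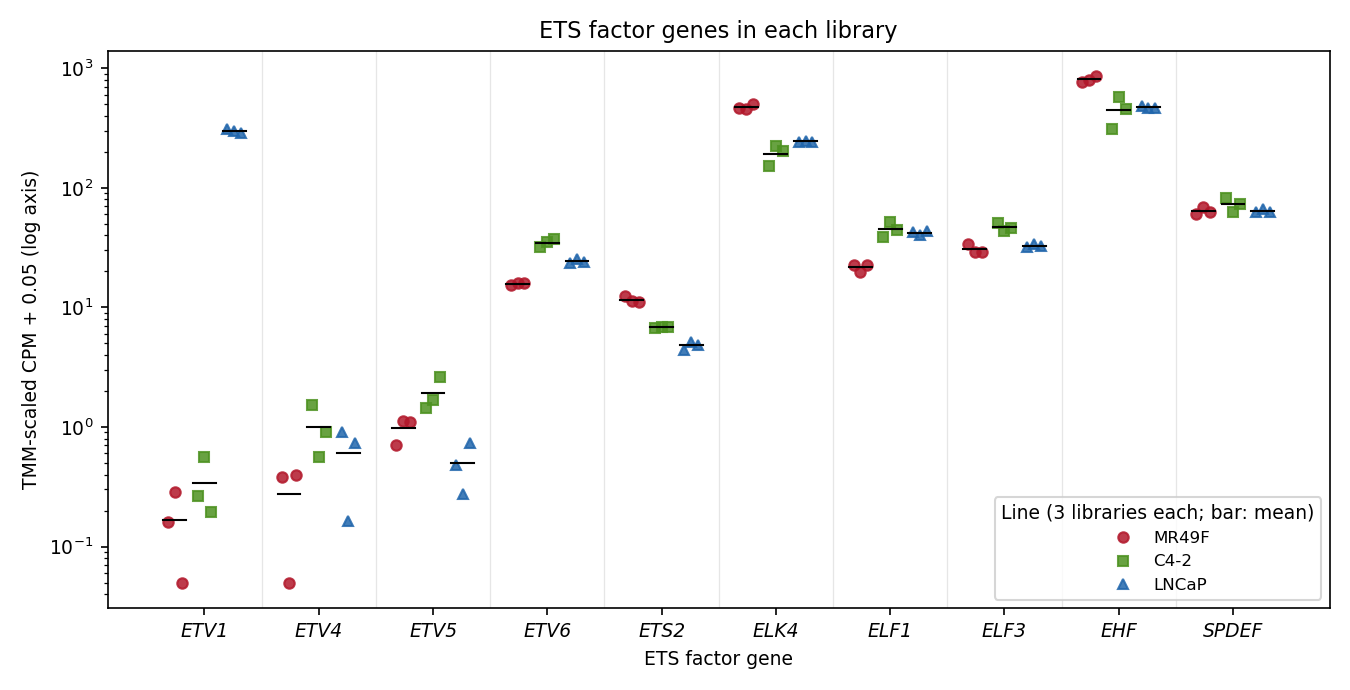
TMM-scaled CPM plus 0.05 on a log axis for the 10 ETS factors in each library, with points for single libraries and bars for the mean of 3 libraries per line (MR49F, C4-2, LNCaP from left to right within each gene). ETV1 lies at 287 to 313 CPM in LNCaP and under 1 CPM in the other lines, while ETV4 and ETV5 stay under 3 CPM in every library.

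ETV1 (ENSG00000006468, GRCh38 chromosome 7, 13891228 to 13991425, minus strand) is a PEA3 group activator and a known oncogene of prostate cancer. Its counts were 1, 2 and 0 in MR49F replicates 1 to 3, 9, 4 and 1 in C4-2, and 2928, 2642 and 2084 in LNCaP. In CPM this is 0.109, 0.238 and 0 in MR49F, 0.216, 0.506 and 0.143 in C4-2, and 313, 300 and 287 in LNCaP. Every LNCaP library was far above every library of the other lines, and MR49F and C4-2 overlapped. Pooled over replicates, 3 counts in MR49F stood against 7654 in LNCaP, a level 2633 times as high in LNCaP (95% exact interval 901 to 12770). The 14 counts in C4-2 put LNCaP 1216 times as high (724 to 2225). Between MR49F and C4-2 the ratio was 0.462 (0.0851 to 1.65). These intervals describe the counting error of values that chose the gene, and no more. What lies behind the low counts in MR49F and C4-2 was not tested.

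The promoter window of ETV1 is shown because it holds the gene whose level defines this set, and it can be read against those of ELK4 and ETV6, the members with the largest log2 fold changes between MR49F and C4-2. The windows come from RefSeq on build GRCh38.p14, run 250 bases before to 50 after the gene start and are printed 5′ to 3′ on the strand of the gene. Capitals mark GGAA or its reverse complement TTCC, the core that ETS domains contact. The ETV1 window is chr7:13991376-13991675 (minus strand), that of ELK4 is chr1:205631962-205632261 (minus strand) and that of ETV6 is chr12:11649424-11649723 (plus strand).
ETV1: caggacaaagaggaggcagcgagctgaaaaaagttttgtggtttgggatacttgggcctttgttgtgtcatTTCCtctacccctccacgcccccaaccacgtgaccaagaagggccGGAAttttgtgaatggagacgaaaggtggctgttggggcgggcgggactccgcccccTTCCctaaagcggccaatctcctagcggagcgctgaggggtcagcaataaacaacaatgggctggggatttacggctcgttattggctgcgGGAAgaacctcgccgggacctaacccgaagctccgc
ELK4: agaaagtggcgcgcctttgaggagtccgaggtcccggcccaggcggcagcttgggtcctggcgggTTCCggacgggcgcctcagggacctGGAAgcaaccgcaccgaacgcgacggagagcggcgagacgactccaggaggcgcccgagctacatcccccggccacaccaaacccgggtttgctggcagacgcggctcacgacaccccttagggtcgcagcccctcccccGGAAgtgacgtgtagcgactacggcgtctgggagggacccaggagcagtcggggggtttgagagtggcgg
ETV6: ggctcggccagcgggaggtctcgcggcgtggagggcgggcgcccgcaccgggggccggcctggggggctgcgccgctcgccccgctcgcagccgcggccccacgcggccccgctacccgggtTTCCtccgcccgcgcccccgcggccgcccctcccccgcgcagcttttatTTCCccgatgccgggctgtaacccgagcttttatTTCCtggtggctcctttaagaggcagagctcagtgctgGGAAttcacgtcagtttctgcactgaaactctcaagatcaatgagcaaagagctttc

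The ETV1 window held 4 core matches, the ELK4 window 3 and the ETV6 window 4. Such matches are common: 95.5% of 35116 RefSeq windows of this length held at least 1, with a median of 3. The longer ETS site CCGGAAGT, searched on both strands, occurred in 4.14% of windows. It was found once in the ELK4 window, starting at position 229, and not in those of ETV1 or ETV6. A match is a stretch of letters and not a measured binding site. Of the 28 family genes, 22 had a window in the table, and ETV1 had 6 windows, of which the one at the annotated gene start is printed.

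ETV4 (ENSG00000175832), a PEA3 group activator that is overexpressed in some prostate cancers, was at the edge of detection in all 3 lines. Its levels were 0.328, 0 and 0.346 CPM in MR49F, 1.47, 0.506 and 0.859 CPM in C4-2, and 0.854, 0.114 and 0.689 CPM in LNCaP. The MR49F libraries and the C4-2 libraries both overlapped those of LNCaP. The pooled counts were 6 in MR49F and 14 in LNCaP, a ratio of 0.415 (95% exact interval 0.131 to 1.15). C4-2 had 71 counts, 61 of them in the deep replicate 1, and its ratio to LNCaP was 2.28 (1.27 to 4.38). Without that library 10 counts remained in C4-2, and the ratio was 1.22 (0.485 to 2.95).

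ETV5 (ENSG00000244405), the remaining PEA3 group gene and a known target of FGF and ERK signalling, was low in all 3 lines. It had 0.657, 1.07 and 1.04 CPM in MR49F, 1.39, 1.64 and 2.58 CPM in C4-2, and 0.427, 0.227 and 0.689 CPM in LNCaP. All C4-2 libraries were above all libraries of the other lines, and MR49F overlapped LNCaP. The log2 fold change was 1.06 in MR49F against LNCaP (SE 0.526), 1.91 in C4-2 against LNCaP (SE 0.433) and -0.85 in MR49F against C4-2 (SE 0.361). These values are given without a test, since ETV5 passed the filter on low counts through C4-2 alone. ETV4 and ETV5 thus stayed under 3 CPM in each library, where ETV1 had at least 287 CPM in LNCaP.

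The genes that control PEA3 proteins were listed as the COP1 ubiquitin ligase complex, its TRIB adaptors, and the repressor CIC with its ATXN1 partners. Of these 12 genes, all tested, 5 were higher and 5 lower in MR49F against LNCaP (median log2 fold change 0.01, as over all tested genes). In C4-2 against LNCaP 2 were higher and 4 lower (median -0.05, against -0.00 over all tested genes). Of all tested genes, 47.0% were called in MR49F and 49.7% in C4-2 against LNCaP. TRIB2, a pseudokinase that brings COP1 to its substrates, had 9.63, 10.3 and 10.6 CPM in MR49F, 33.6, 34.2 and 37.8 CPM in C4-2, and 0, 0 and 0.138 CPM in LNCaP. LNCaP had a single TRIB2 count in all, so the pooled ratio to LNCaP was 259 for MR49F (95% exact interval 46.0 to 10300) and 870 for C4-2 (156 to 34400). COP1 itself was higher in MR49F with a log2 fold change of 0.25, and did not pass in C4-2 (0.06). CUL4A, a cullin scaffold of the complex, was lower in both (-0.62 in MR49F and -0.30 in C4-2). The other listed cullin, CUL4B, was higher in MR49F (0.66, edgeR adjusted p = 3.49e-06). In C4-2 it gave -0.07 (edgeR adjusted p = 0.54). CIC, which represses PEA3 group genes, was lower in MR49F (-0.30, edgeR adjusted p = 0.0183, passing in 15 of 17 settings) and in C4-2 (-0.59, edgeR adjusted p = 5.29e-05). ATXN1, a partner of CIC, was lower in MR49F (-1.43) and higher in C4-2 (1.22).

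**Figure D2:**
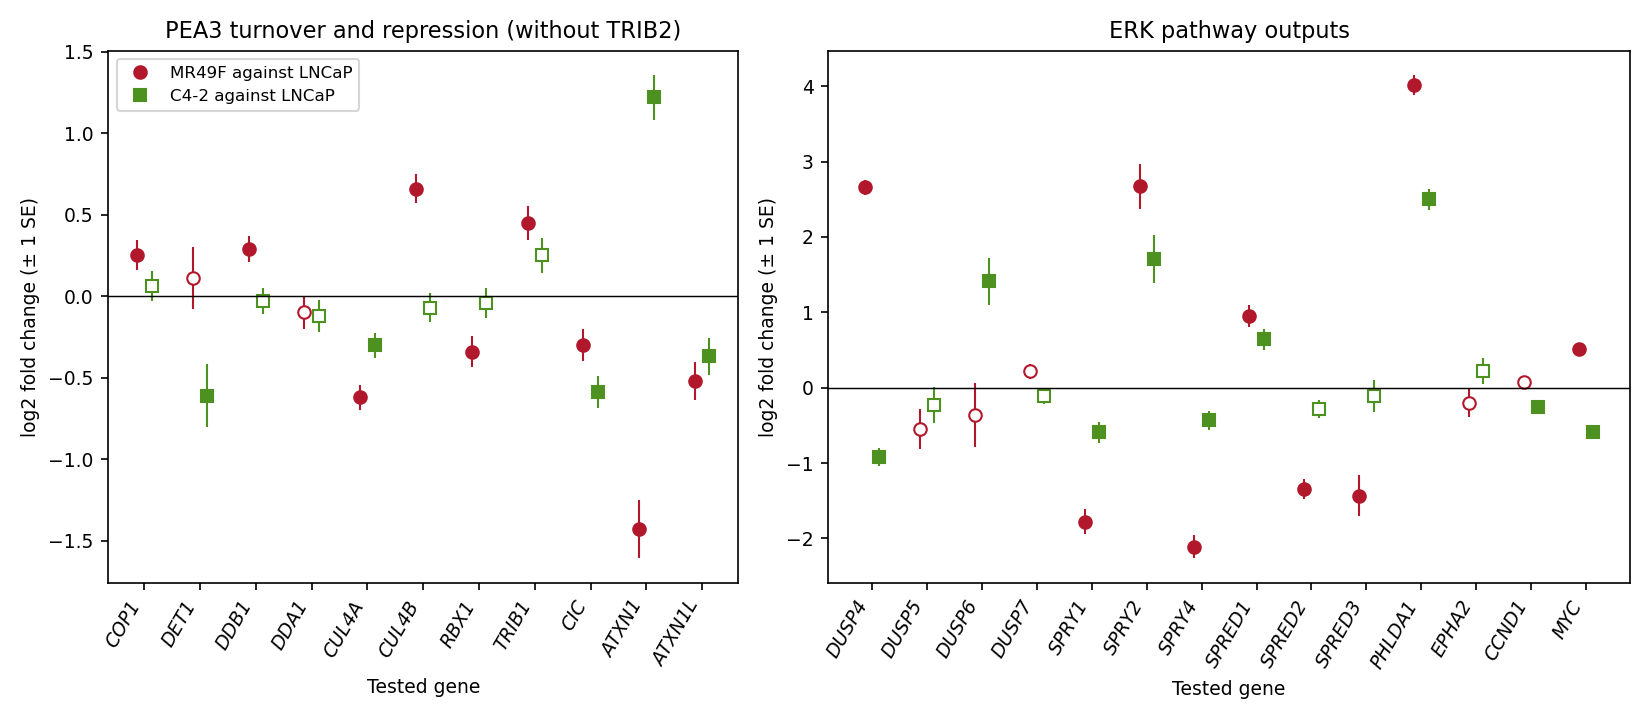
log2 fold change with 1 SE for tested genes that control PEA3 proteins (left) and for known outputs of ERK signalling (right), in MR49F against LNCaP (circles) and C4-2 against LNCaP (squares), with filled symbols for an adjusted p under 0.05. TRIB2 is left off because LNCaP had 1 count, and the right panel shows PHLDA1 high in both lines (4.02 and 2.50) while DUSP4 takes opposite signs (2.66 and -0.92).

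Matrix protease genes that PEA3 factors are known to activate mostly lay too low to test: 5 of 13 were tested. In MR49F against LNCaP 1 was higher and 2 lower (median log2 fold change -0.78), and in C4-2 against LNCaP 4 were higher and 1 lower (median 0.68), where 47.0% and 49.7% of all tested genes were called. MMP13 passed the filter on low counts through C4-2 alone and MMP10 through LNCaP alone; without them 1 was higher and 1 lower of 3 genes in MR49F, and 3 were higher in C4-2. MMP7, matrilysin, had no count in any MR49F library, against 10.4, 11.4 and 11.4 CPM in LNCaP, a level at least 77.8-fold lower by the exact 95% interval of the pooled counts, or 96.3-fold lower with 3 counts assumed in all of MR49F. In C4-2 it lay at 17.8, 13.3 and 14 CPM, above LNCaP (log2 fold change 0.49, edgeR adjusted p = 0.00953, passing in 15 of 17 settings). MMP13, a collagenase, gave -1.75 in MR49F and 2.30 in C4-2 on the log2 scale, at mean levels of 0.343 CPM, 5.67 CPM and 1.16 CPM in MR49F, C4-2 and LNCaP. MMP15, a membrane-type protease, was higher in C4-2 (1.54), with -0.07 in MR49F (edgeR adjusted p = 0.68). HPSE, which cleaves heparan sulfate, was higher in MR49F (0.87) and in C4-2 (0.68, edgeR adjusted p = 0.0281, passing in 10 of 17 settings). MMP10 gave -2.36 in C4-2. The C4-2 count of this list fell to 3 genes without C4-2 replicate 1 and without LNCaP replicate 1.

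ETV6 (ENSG00000139083, chromosome 12, 11649854 to 11895402), a transcriptional repressor known for its fusions in leukaemia, differed between all 3 lines. It had 15.4, 15.8 and 15.9 CPM in MR49F, 32.0, 35.4 and 37.1 CPM in C4-2, and 23.5, 25.2 and 23.8 CPM in LNCaP. No libraries of different lines overlapped: C4-2 was highest, LNCaP in between and MR49F lowest. The log2 fold change was -0.62 in MR49F against LNCaP (SE 0.11, edgeR adjusted p = 8.91e-05) and 0.51 in C4-2 against LNCaP (SE 0.0997, edgeR adjusted p = 2.49e-04). MR49F against C4-2 gave -1.13 (SE 0.104, edgeR adjusted p = 9.02e-09). All 3 calls passed in 17 of 17 settings.

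ETS2 (ENSG00000157557, chromosome 21, 38805307 to 38824955), an activator that ERK phosphorylates, was higher in both derivatives. It had 12.3, 11.2 and 11.1 CPM in MR49F, 6.70, 6.83 and 6.87 CPM in C4-2, and 4.38, 5.11 and 4.82 CPM in LNCaP. The lines did not overlap, and MR49F was highest. MR49F against LNCaP gave 1.27 on the log2 scale (SE 0.155, edgeR adjusted p = 9.79e-07), and MR49F against C4-2 gave 0.76 (SE 0.138, edgeR adjusted p = 7.31e-05). C4-2 against LNCaP gave 0.51 (SE 0.159, edgeR adjusted p = 0.0117). This last call was lost when C4-2 replicate 1 was thinned to the depth of its group (0.39, edgeR adjusted p = 0.0822) and without LNCaP replicate 1 (0.44, edgeR adjusted p = 0.068). ETS1, its closest relative, had 26, 21 and 23 counts in MR49F, C4-2 and LNCaP and was not tested.

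Known outputs of ERK signalling, which acts on ETV1, ETV4, ETV5, ETS2 and the ELK factors, moved in both directions. Of 17 listed genes 14 were tested; 5 were higher and 4 lower in MR49F against LNCaP (median log2 fold change -0.06), and 4 were higher and 5 lower in C4-2 against LNCaP (median -0.17), where 47.0% and 49.7% of all tested genes were called. One of the 4, DUSP6, passed the filter on low counts through C4-2 alone. PHLDA1, a growth regulator, had 54.8, 52.7 and 57.6 CPM in MR49F, 19.1, 20.6 and 18.0 CPM in C4-2, and 3.20, 3.52 and 3.45 CPM in LNCaP. It was higher by 4.02 in MR49F (SE 0.130, edgeR adjusted p = 7.03e-16) and by 2.50 in C4-2 (SE 0.139, edgeR adjusted p = 5.90e-12) on the log2 scale. DUSP4, a phosphatase that inactivates ERK, averaged 113 CPM in MR49F, 9.68 CPM in C4-2 and 17.9 CPM in LNCaP. It was higher in MR49F against LNCaP (2.66) and lower in C4-2 against LNCaP (-0.92). SPRY4, a feedback inhibitor of receptor tyrosine kinase signalling, was lower in MR49F (-2.11) and in C4-2 (-0.43). Its relative SPRY1 was also lower in both (-1.78 and -0.59), whereas SPRY2 was higher in both (2.67 and 1.71). MYC was higher in MR49F (0.52, edgeR adjusted p = 5.39e-06) and lower in C4-2 (-0.59, edgeR adjusted p = 1.15e-06).

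ELK4 (ENSG00000158711, chromosome 1, 205597556 to 205631962), a ternary complex factor that binds DNA together with SRF, had the highest CPM of the members after EHF in MR49F and C4-2. It had 465, 455 and 506 CPM in MR49F, 151, 223 and 204 CPM in C4-2, and 244, 248 and 243 CPM in LNCaP. The lines did not overlap, with MR49F highest and C4-2 lowest. MR49F was higher than LNCaP at 0.96 on the log2 scale (SE 0.104, edgeR adjusted p = 2.05e-07) and higher than C4-2 with 1.31 (SE 0.105, edgeR adjusted p = 1.10e-09). C4-2 was lower than LNCaP with -0.36 (SE 0.105, edgeR adjusted p = 0.00772), or -0.20 without C4-2 replicate 1 (edgeR adjusted p = 0.0177).

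SLC45A3, the neighbour upstream of ELK4 and a prostate gene under androgen control, is known to give read-through transcripts into ELK4 in prostate cancer cells. It averaged 742 ± 53.0 CPM in MR49F, 151 ± 12.5 CPM in C4-2 and 346 ± 12.7 CPM in LNCaP (SD, n = 3 each). Its log2 fold changes were 1.10 in MR49F against LNCaP, -1.19 in C4-2 against LNCaP and 2.29 in MR49F against C4-2, all with the sign that ELK4 had. Counts per gene cannot separate ELK4 reads of its own promoter from those of read-through RNA, and the part of SLC45A3 in the ELK4 values was not tested. The ELK4 window shown above is the promoter of ELK4 alone.

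The other ternary complex factors were lower in level. ELK1 had 75.5, 77.2 and 76.0 CPM in MR49F, 34.0, 31.6 and 35.2 CPM in C4-2, and 48.5, 44.1 and 40.4 CPM in LNCaP. It followed the order seen for ELK4, with log2 fold changes of 0.78 in MR49F against LNCaP, -0.40 in C4-2 against LNCaP and 1.18 in MR49F against C4-2. ELK3 was higher in MR49F against LNCaP (0.37, edgeR adjusted p = 0.0237), a call that passed in 10 of 17 settings. Among 9 tested of 11 immediate early genes under SRF and ternary complex factors, 1 was higher and 3 lower in MR49F against LNCaP (median -0.28). In C4-2 against LNCaP 3 were higher and 2 lower (median 0.13). Over all tested genes 47.0% and 49.7% were called in these comparisons. EGR1, CCN1 and IER2 were lower in MR49F (-2.61, -1.02 and -0.68). EGR1, a growth-induced zinc finger factor, averaged 0.759 ± 0.147 CPM in MR49F, 3.61 ± 0.410 CPM in C4-2 and 4.59 ± 1.94 CPM in LNCaP (SD, n = 3 each). In C4-2 the AP-1 gene FOSB was higher (2.34), and IER2 (-0.45) and the survival gene MCL1 (-0.39) were lower. SRF itself was higher in C4-2 (0.55) and in MR49F (0.33, edgeR adjusted p = 0.0118, passing in 15 of 17 settings). Without C4-2 replicate 1, 7 genes of this list passed in MR49F against LNCaP.

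ELF1 (ENSG00000120690, chromosome 13, 40932028 to 41061440), a broadly expressed activator, was lower in MR49F than in both other lines. It had 22.8, 19.8 and 22.5 CPM in MR49F, 39.1, 51.6 and 44.2 CPM in C4-2, and 42.7, 40.6 and 43.1 CPM in LNCaP. C4-2 and LNCaP overlapped, and all MR49F libraries lay below both. MR49F was lower than LNCaP at -0.96 on the log2 scale (SE 0.113, edgeR adjusted p = 6.21e-07) and lower than C4-2 with -1.03 (SE 0.111, edgeR adjusted p = 8.96e-08). C4-2 against LNCaP gave 0.08 (SE 0.104, edgeR adjusted p = 0.572). Its relative ELF2 was higher in MR49F (0.38) and C4-2 (0.49) against LNCaP. ELF4 had 6.78, 8.08 and 5.99 CPM in MR49F, 15.9, 19.0 and 16.3 CPM in C4-2, and 8.86, 8.98 and 8.82 CPM in LNCaP, without overlap between lines. Like ELF1 it was lower in MR49F than in C4-2 (-1.28, edgeR adjusted p = 1.35e-07). MR49F against LNCaP gave -0.36 (edgeR adjusted p = 0.071), and C4-2 was higher than LNCaP (0.93).

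EHF (ENSG00000135373, chromosome 11, 34621093 to 34661057), an epithelial ETS factor whose loss is known in prostate tumours, had the highest CPM of the family in every line. It had 769, 797 and 861 CPM in MR49F, 312, 574 and 460 CPM in C4-2, and 480, 464 and 467 CPM in LNCaP. MR49F lay above all other libraries, and C4-2 spanned the LNCaP values. MR49F was higher than LNCaP at 0.78 on the log2 scale (SE 0.155, edgeR adjusted p = 8.73e-04) and higher than C4-2 with 0.86 (SE 0.155, edgeR adjusted p = 2.68e-04). C4-2 against LNCaP gave -0.07 (SE 0.154, edgeR adjusted p = 0.722), and its sign rested on single libraries: 0.14 without C4-2 replicate 1 (edgeR adjusted p = 0.12) and -0.30 without C4-2 replicate 2 (edgeR adjusted p = 0.0202).

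ELF3 (ENSG00000163435, chromosome 1, 202007945 to 202017188), an activator of epithelial differentiation, was higher in C4-2 than in both other lines. It had 34.1, 29.1 and 29 CPM in MR49F, 50.8, 43.5 and 46.1 CPM in C4-2, and 31.9, 33.6 and 32.5 CPM in LNCaP. MR49F and LNCaP overlapped, and C4-2 lay above both. C4-2 against LNCaP gave 0.53 on the log2 scale (SE 0.0978, edgeR adjusted p = 1.41e-04) and MR49F against C4-2 gave -0.62 (SE 0.0980, edgeR adjusted p = 1.62e-05). MR49F against LNCaP gave -0.09 (SE 0.103, edgeR adjusted p = 0.518). ELF5, an epithelial relative that lies next to EHF on chromosome 11, was far lower in level but differed more. It had 5.69, 4.04 and 4.73 CPM in MR49F, 20.8, 21.6 and 20.7 CPM in C4-2, and 1.5, 0.909 and 0.689 CPM in LNCaP, without overlap between lines. Its log2 fold changes were 2.18 in MR49F against LNCaP, 4.30 in C4-2 against LNCaP and -2.12 in MR49F against C4-2, each passing in 17 of 17 settings.

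SPDEF (ENSG00000124664, chromosome 6, 34537802 to 34556333), a factor of secretory luminal cells that works with the androgen receptor, did not pass the test in any comparison. It had 60.8, 68.8 and 62.6 CPM in MR49F, 81.7, 63.3 and 73.7 CPM in C4-2, and 62.9, 67.1 and 62.2 CPM in LNCaP. The libraries of all 3 lines overlapped. The log2 fold change was -0.00 in MR49F against LNCaP (SE 0.0973, edgeR adjusted p = 0.993), 0.20 in C4-2 against LNCaP (SE 0.0955, edgeR adjusted p = 0.0932) and -0.20 in MR49F against C4-2 (SE 0.0953, edgeR adjusted p = 0.078). Without C4-2 replicate 2, C4-2 was higher than LNCaP (0.29, edgeR adjusted p = 0.00974) and MR49F lower than C4-2 (-0.30, edgeR adjusted p = 0.00549).

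Secretory and junction genes linked to SPDEF, EHF and ELF3 moved in both directions. Of 10 tested from 15 listed, 3 were higher and 2 lower in MR49F against LNCaP (median log2 fold change 0.02), and 5 were higher and 1 lower in C4-2 against LNCaP (median 0.41), where 47.0% and 49.7% of all tested genes were called. CDH1, the epithelial cadherin, averaged 372 ± 8.62 CPM in MR49F, 1120 ± 43.6 CPM in C4-2 and 792 ± 32.9 CPM in LNCaP (SD, n = 3 each). It was lower in MR49F (-1.09, SE 0.0718, edgeR adjusted p = 8.36e-11) and higher in C4-2 (0.51, SE 0.0706, edgeR adjusted p = 5.34e-06). AGR2, a chaperone of secreted proteins, took the same signs (-2.02 and 1.14), and it also lies within 3 Mb of ETV1. TFF3, a secreted trefoil peptide, gave 1.98 in MR49F, the line through which alone it passed the filter on low counts; it is 1 of the 3 counted as higher. CLDN4, a tight junction claudin, was higher in C4-2 (0.88). KLK3, prostate-specific antigen, was higher in C4-2 (0.71) and in MR49F (0.35).

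**Figure D3:**
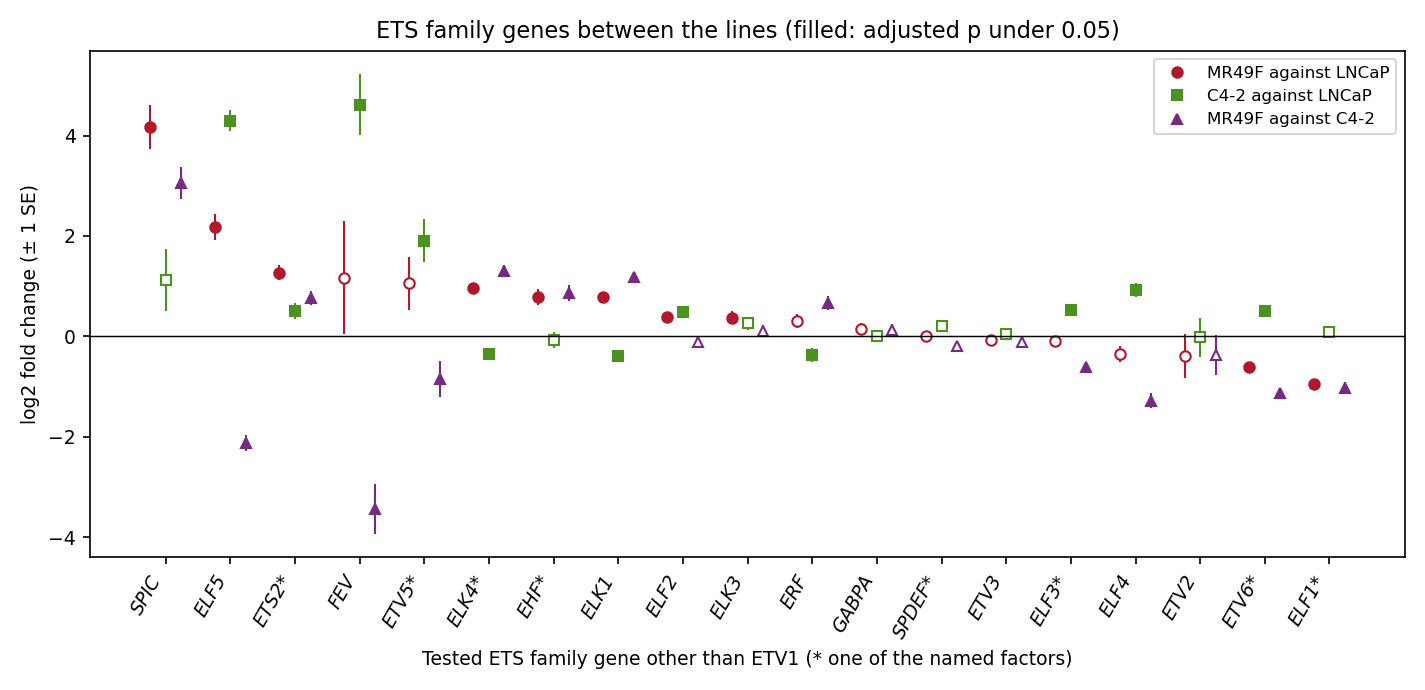
log2 fold change with 1 SE for the 19 tested ETS family genes other than ETV1 in MR49F against LNCaP (circles), C4-2 against LNCaP (squares) and MR49F against C4-2 (triangles); filled symbols mark an adjusted p under 0.05 and asterisks the genes named as members. SPIC is highest in MR49F (4.17 against LNCaP), ELF5 and FEV are highest in C4-2 (4.30 and 4.62), where FEV rests on 2 counts in LNCaP; the symbols of SPIC, FEV and ETV5, which passed the filter through 1 line alone, are a description, and all other genes drawn lie within 2 units of 0.

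Over the whole family other than ETV1, 19 of 27 genes were tested, of which 3 passed the filter on low counts through 1 line alone (SPIC through MR49F, ETV5 and FEV through C4-2). Of the other 16, 7 were higher and 2 lower in MR49F against LNCaP, where 24.1% of all tested genes were higher and 22.8% lower. C4-2 against LNCaP gave 6 higher and 3 lower, where 26.2% of all tested genes were higher and 23.5% lower. MR49F against C4-2 gave 5 higher and 5 lower, where 29.9% were higher and 31.1% lower. The medians of the 16 were 0.22, 0.14 and -0.12 on the log2 scale, where the medians over all tested genes were 0.01, -0.00 and -0.00. SPIC, a macrophage ETS factor, had 4.49, 2.49 and 4.15 CPM in MR49F, 0.456, 0.380 and 0.429 CPM in C4-2, and 0.214, 0.227 and 0.138 CPM in LNCaP. Its log2 fold change in MR49F against LNCaP was 4.17 (SE 0.439), given without a test. FEV, a factor of serotonergic neurons, had 5, 128 and 2 pooled counts in MR49F, C4-2 and LNCaP, a ratio of C4-2 to LNCaP of 28.8 (95% exact interval 7.81 to 240.0), or 23.0 without C4-2 replicate 1 (lower bound 5.79). ERF, a repressor that ERK inactivates, was lower in C4-2 against LNCaP (-0.37, edgeR adjusted p = 0.0342, passing in 13 of 17 settings) and gave 0.30 in MR49F against LNCaP (edgeR adjusted p = 0.0881). The repressor ETV3, the mitochondrial gene regulator GABPA and ETV2 passed in none of the 3 comparisons. ERG, which is the most frequent ETS rearrangement partner in prostate cancer, had 5 counts in MR49F and none in C4-2 or LNCaP, and FLI1 had none in any library. TMPRSS2, the androgen-driven gene that is the usual partner of ERG in such fusions, averaged 594 ± 22.9 CPM in MR49F, 228 ± 9.34 CPM in C4-2 and 71.6 ± 3.06 CPM in LNCaP (SD, n = 3 each). It was higher than in LNCaP in MR49F (3.05) and in C4-2 (1.67). The luminal gene KLK2 was also higher in MR49F (1.25) and in C4-2 (0.57).

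Levels of different genes can be compared only per length, here as CPM per kb of merged exons. EHF led in each line, with 184 ± 10.7 in MR49F, 102 ± 30.0 in C4-2 and 107 ± 1.95 in LNCaP (SD, n = 3 each), which is 55.9%, 44.8% and 42.4% of the sum over the family. In MR49F, ELK4 (39.2), SPDEF (33.5) and ELK1 (22.4) followed, each with ranges over libraries apart from the next. In C4-2 the order was SPDEF (38.1), ELK4 (15.9), ELF1 (10.4) and ELK1 (9.89), and the ranges of ELF1 and ELK1 overlapped. In LNCaP the order was SPDEF (33.5), ETV1 (31.2), ELK4 (20.2) and ELK1 (13.0), and the ranges of SPDEF and ETV1 overlapped. ETV1 held 12.3% of the family sum in LNCaP, 0.00365% in MR49F and 0.0131% in C4-2. The family sums were 329 in MR49F, 228 in C4-2 and 253 in LNCaP. With the longest annotated transcript as the length, ETV1 stood at 44.5 in LNCaP and came before SPDEF at 33.8.

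**Figure D4:**
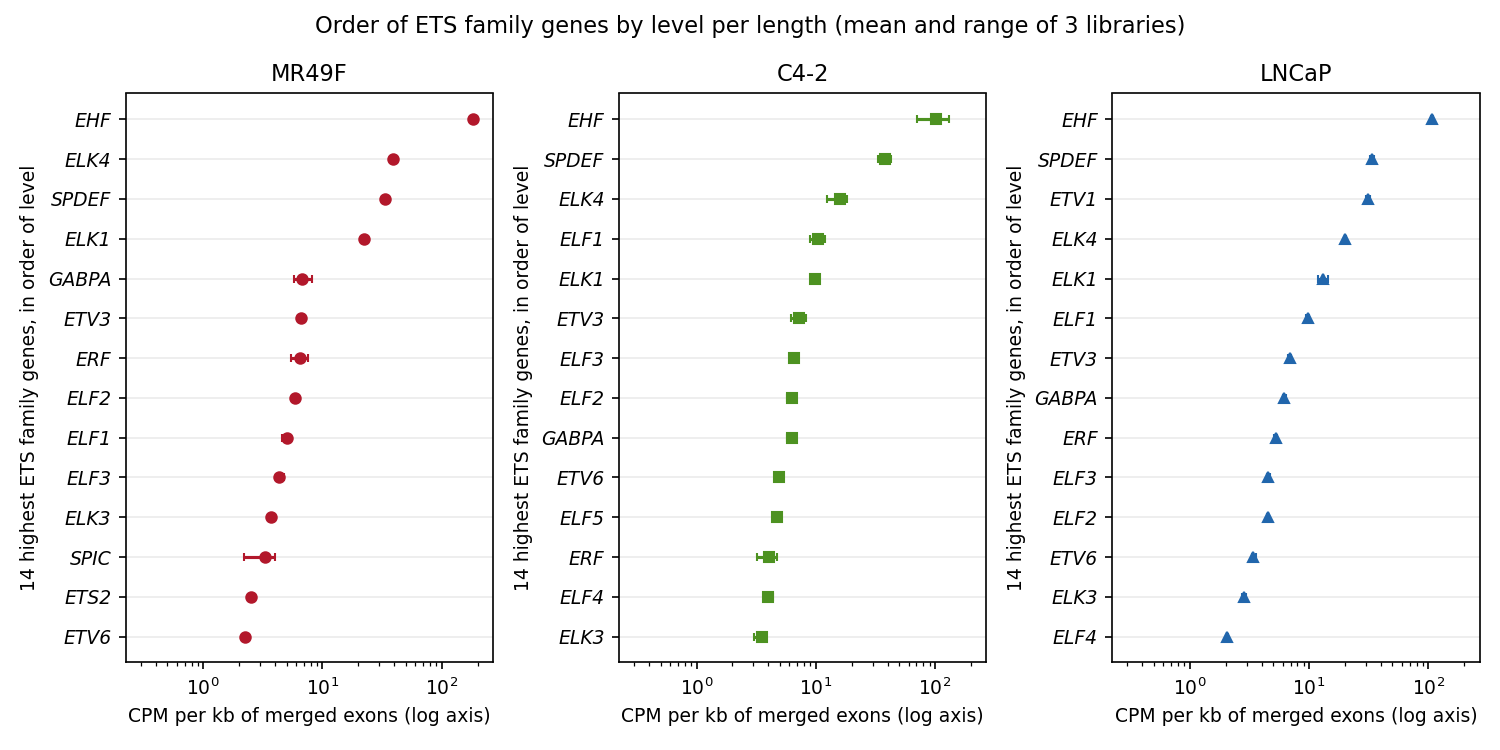
The 14 highest ETS family genes of each line, in order of CPM per kb of merged exons on a log axis, with points for the mean and bars for the range of 3 libraries. EHF comes first in all 3 lines, and ETV1 is among the first 3 genes in LNCaP (31.2) and absent from the other panels.

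The neighbours of ETV1 on chromosome 7 moved in both directions. Within 3 Mb of its start 11 of 19 protein-coding genes, apart from ETV1, were tested; 6 were higher and 4 lower in MR49F against LNCaP, and 3 were higher and 4 lower in C4-2 against LNCaP, where 47.0% and 49.7% of all tested genes were called. DGKB, a diacylglycerol kinase next to ETV1 on one side, had 5.80, 6.65 and 7.38 CPM in MR49F, 8.60, 9.49 and 8.87 CPM in C4-2, and 15.3, 15.3 and 15.7 CPM in LNCaP. It was lower in MR49F (log2 fold change -1.22, SE 0.142, edgeR adjusted p = 4.67e-07) and in C4-2 (-0.79, SE 0.130, edgeR adjusted p = 3.64e-05). SCIN, an actin-severing protein, gave -2.19 in MR49F and -1.49 in C4-2. It passed the filter on low counts through LNCaP alone, so it had to differ between lines, and its values are a description. SCIN is 1 of the 4 genes counted as lower in each comparison. VWDE was higher in MR49F (2.14) and lower in C4-2 (-0.60, passing in 13 of 17 settings). In the comparisons with LNCaP, the lowest log2 fold change among the tested neighbours was the -2.19 of SCIN, on 14 counts in MR49F and 63 in LNCaP. With SCIN set aside, the lowest was the -2.02 of AGR2 in MR49F.

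The region around MIPOL1, the known insertion site of ETV1 in LNCaP, was described in the same way. Of 31 protein-coding genes within 3 Mb of its start, apart from MIPOL1, 25 were tested. In MR49F against LNCaP 6 were higher and 5 lower, and in C4-2 against LNCaP 6 were higher and 4 lower. The shares over all tested genes were the same as for the neighbours of ETV1. MIPOL1 itself, a gene for a coiled-coil protein, had 101, 99.6 and 124 CPM in MR49F, 22.8, 31.4 and 29.5 CPM in C4-2, and 55.6, 58.7 and 51.7 CPM in LNCaP. It was higher in MR49F (log2 fold change 0.97, SE 0.112, edgeR adjusted p = 4.69e-07) and lower in C4-2 (-1.03, SE 0.120, edgeR adjusted p = 4.74e-07), so it did not share the pattern of ETV1. SLC25A21, a mitochondrial carrier on one side, gave -0.14 and -0.16 in the same comparisons. FOXA1, the pioneer factor of the androgen receptor on the other side, gave 0.10 in MR49F (edgeR adjusted p = 0.248) and -0.09 in C4-2 (edgeR adjusted p = 0.326). TTC6, which starts inside FOXA1 on the opposite strand, was lower in MR49F (-2.99, 16.9 ± 1.15 CPM against 135 ± 4.44 CPM in LNCaP, SD, n = 3 each). Its reads may be mixed with those of FOXA1, since the strand setting of the counting is not given. ENSG00000258790 gave -1.54 in MR49F, at 0.343 CPM against 1.00 CPM in LNCaP. It passed the filter on low counts through C4-2 alone, so its values are a description. This gene is 1 of the 5 counted as lower in MR49F and 1 of the 6 counted as higher in C4-2.

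**Figure D5:**
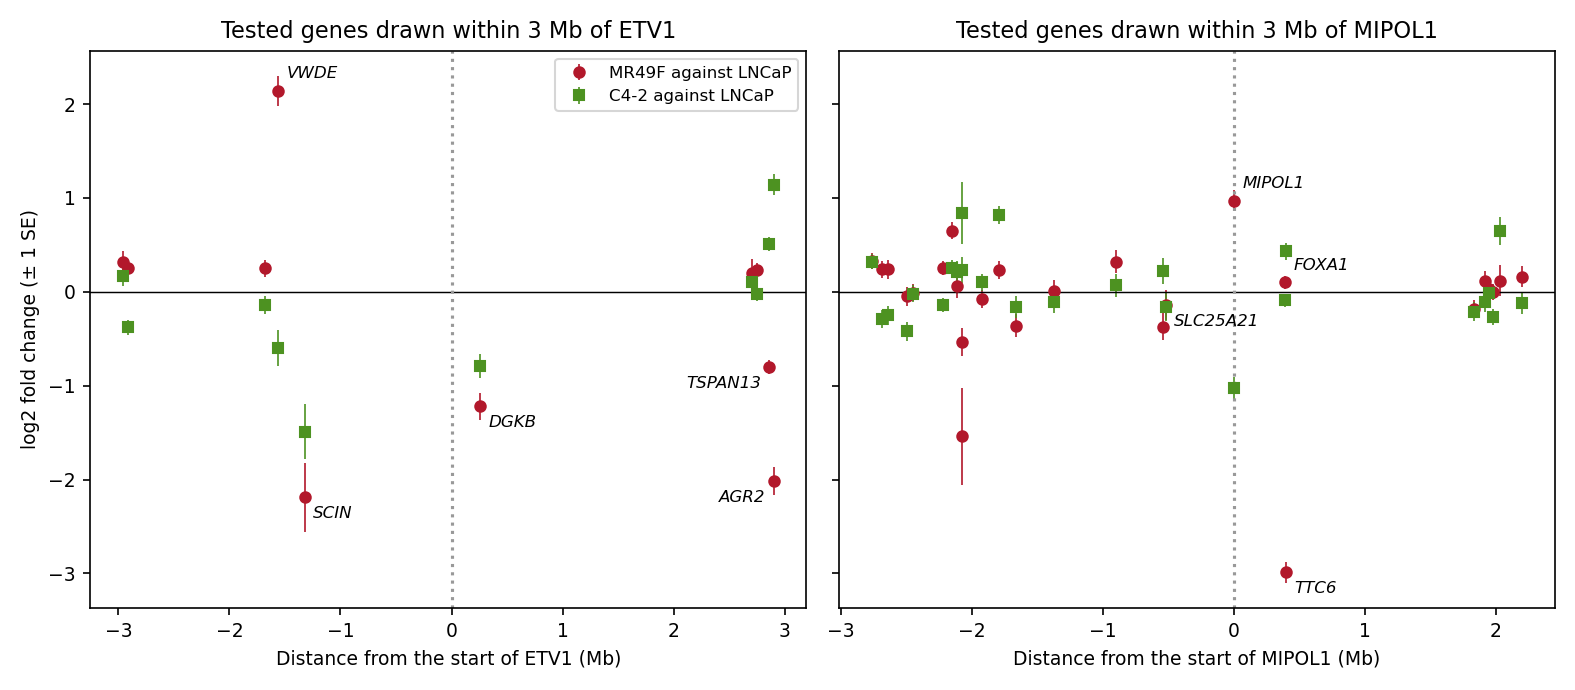
log2 fold change with 1 SE of tested genes against the distance in Mb of their start from that of ETV1 (left) and MIPOL1 (right), in MR49F against LNCaP (circles) and C4-2 against LNCaP (squares); ETV1 itself and 1 of its neighbours are not drawn. DGKB is lower in both lines (-1.22 and -0.79), MIPOL1 takes opposite signs (0.97 and -1.03), and FOXA1 lies close to 0. The symbols of SCIN and ENSG00000258790, which passed the filter on low counts through 1 line alone, are a description.

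The genes most like ETV1 in their pattern over the libraries were found by Pearson's correlation of log2(CPM + 1) with ETV1 over 9 libraries, among 10220 tested genes of at least 10 CPM in LNCaP; with 3 lines it describes which genes separate LNCaP from both derivatives, and it carries no p. The long non-coding RNA LINC01516 on chromosome 10 was most alike (0.9986), with 1 count in MR49F, 1 in C4-2 and 286 in LNCaP. MID1IP1, a regulator of lipid synthesis, followed (0.9965), with 66.2 ± 1.21 CPM in MR49F, 68.3 ± 2.53 CPM in C4-2 and 133 ± 1.61 CPM in LNCaP (SD, n = 3 each). RIMS1, a protein of the presynaptic active zone, had 4.84 CPM in MR49F, 6.23 CPM in C4-2 and 48.6 CPM in LNCaP (0.9949). ZNF561-AS1 (0.9944) and the Golgi gene GOLPH3L (0.994) completed the 5, with GOLPH3L at 38.3 CPM, 39.1 CPM and 64.9 CPM in MR49F, C4-2 and LNCaP. Apart from LINC01516, these genes stayed expressed in all 3 lines.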

How the data were processed

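Stranded TruSeq libraries of poly(A) RNA were read in pairs, per the labels. The deposited table holds counts per Ensembl gene, whole numbers that the authors did not normalize. The submitters' processing notes list HTSeq 0.6.1, TopHat2, FastQC 0.11.3, edgeR 3.12.1 and a GRCh38 build, with no role for each. Strand setting, annotation release and filters: not given in the sources used here, so overlapping, antisense or near-identical genes are uncertain. The 9 columns named for MR49F, C4-2 and LNCaP were used. The names of 3 further columns match no title, so these columns entered no step and C4-2R was not analysed here. Of 57992 IDs, 57388 matched GENCODE 29, which gave coordinates and lengths, and 56948 matched a table of gene names.

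Lines were compared with the quasi-likelihood test of edgeR 4.0.16 in R 4.3.3 (robust fit, TMM, filterByExpr by line, 1 mean per line, 6 residual degrees of freedom, common biological coefficient of variation 0.0817). P-values were adjusted over 15407 tested genes. Each standard error (SE) is the size of the log2 fold change over the root of its F statistic. Ratios of pooled counts used TMM-scaled library sizes, with exact 95% binomial intervals, and a floor of 3 counts over the group for a line with none. They cover counting error only, and for genes below 1 CPM few counts stand behind a value. The fit was tested on simulated data.

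The members and gene lists were chosen with earlier results of these data known. Named are all members, all tested ETS family genes, from each list the 3 genes of lowest adjusted p against LNCaP in MR49F and in C4-2, neighbours of ETV1 and MIPOL1 and those past 2-fold, and the 5 genes most like ETV1. SPRY1, SPRY2, COP1, CUL4B, KRT14, ETS1, ERG and FLI1 were named beyond this rule, after their values were seen. A few genes that the rule names are not reported here. Same-numbered replicates did not deviate together (correlations -0.083 to 0.056), so no pairing was used. The alternatives were DESeq2 1.42.0, RLE scaling, a filter of 1 CPM in 3 libraries or none, a fit on only the 6 libraries compared, a replicate block, C4-2 replicate 1 thinned to 17.6% of its counts, and each library left out. Together with the settings reported they make 17 settings.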

Additional observations from a re-analysis of the deposited data

How the results depend on the processing

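Each ETS gene was refitted under 16 alternatives. Over the tested family genes other than ETV1 and all comparisons, 858 values kept direction and side of the threshold, 20 lost the call, 11 gained one and 19 changed sign. A gene that failed the filter of an alternative has no value there. This tally includes SPIC, ETV5 and FEV, which passed the filter on low counts through a single line, so their part in it is a description. The counts of changed genes stayed within 6065 to 8475 for MR49F against LNCaP, 6463 to 8233 for C4-2 against LNCaP and 8640 to 10482 for MR49F against C4-2. With a replicate block they were 7115, 7460 and 9261, so the block moved none of these counts by over 1.5 times. The samples share only a replicate number. With the longest transcript as the length, 6 of 10 members kept their rank by level per kb in C4-2 and 6 of 10 in LNCaP.

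No value that changed sign passed the test, and the cause was not tested. Without a count filter, ETV2 in C4-2 against LNCaP gave 0.00 and SLC25A21 in MR49F against C4-2 gave -0.02, and with C4-2 replicate 1 thinned TFF3 in C4-2 against LNCaP gave -0.02. Over all settings with a value, ranges in C4-2 against LNCaP were -0.62 to 0.17 for ETV2 and -0.06 to 0.17 for ETV3. They were -0.04 to 0.19 for ELF1, -0.30 to 0.14 for EHF and -0.04 to 0.10 for GABPA. CCN1 ranged from -0.00 to 0.29 and TFF3 from -0.38 to 0.53. In MR49F against LNCaP the ranges were -0.05 to 0.04 for SPDEF, -0.03 to 0.25 for GABPA and -0.17 to 0.04 for MMP15. In MR49F against C4-2 they were -1.07 to 0.23 for ETV2, -0.02 to 0.17 for ELK3, -0.03 to 0.23 for GABPA and -0.03 to 0.08 for SLC25A21.

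Leaving out C4-2 replicate 1 for the ratios of pooled counts of ETV4, FEV and TRIB2 in C4-2 against LNCaP was chosen after seeing the data; TRIB2 then gave 911.

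Depth limits ETV1, ETV4, ETV5 and FEV in the lines where they are low. Each line is represented by 3 libraries and 1 line stands for each group.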
